A study of Rattus norvegicus with 38 samples.

Results

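The mitogen-activated protein (MAP) kinase cascade and the dual-specificity phosphatases were followed in blood leukocyte RNA of rats given acetaminophen or methyl parathion. Members were array probes with 1 annotated symbol beginning with Mapk, Map2k, Map3k, Map4k, Dusp or Rps6k and with a signal-to-noise ratio, the scanner's detection score, of at least 3 in at least 3 arrays. Of 26 probes with such a symbol 25 passed, each for a different gene, out of 17819 probes of the whole array that passed the same filter. They comprised 6 Dusp, 7 Mapk, 1 Mapk8ip, 2 Mapkapk, 4 Map2k, 3 Map3k and 2 Rps6k genes, and no Map4k probe was among them. The probe left out, for Dusp26, was detected in 1 array. The members nearest the limit were Mapk12 and Mapk8ip1, each detected in 3 of 38 arrays, and Mapk10, detected in 4.

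A MAP kinase cascade passes a signal along 3 tiers of protein kinases: a MAP3K phosphorylates a MAP2K, which phosphorylates a MAP kinase. The MAP kinases fall into the ERK, JNK and p38 branches and some atypical members, and they act on transcription factors and on further kinases, such as the MAPK-activated kinases. Dual-specificity phosphatases remove the activating phosphates, and many of them are themselves induced by the signal they end. In leukocytes the p38 and JNK branches are known for the response to interleukin 1, tumour necrosis factor and Toll-like receptor ligands. The array measured RNA, so the values say nothing of phosphorylation or kinase activity.

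The rats were male, of the strain labelled CDF Fisher 344, and about 4 months old, and they were assigned to groups at random. A single intraperitoneal dose of 1200 mg/kg acetaminophen, a painkiller whose overdose damages the liver, was given to 4 rats each killed at 4, 12 and 24 h and to 3 rats killed at 168 h. A single intraperitoneal dose of 15 mg/kg methyl parathion, an insecticide of the organophosphate class and an acetylcholinesterase inhibitor, was given to equal numbers at the same times. Each chemical had 4 vehicle rats, given an equal volume of the vegetable oil in which both chemicals were suspended. All rats were killed by microwave irradiation focused on the head, blood was taken from the heart, and leukocyte RNA depleted of globin mRNA was labelled, 1 rat to an array. The vehicle rats were all killed at 24 h, so at 4 and 12 h the hour of killing, and at 168 h age and handling, cannot be told apart from the treatment. Comparisons between times set different rats against each other. There the hour of killing (24 against 12 h) or age and handling (168 against 24 h) cannot be told apart from the time since dosing.

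The median raw signal of an array was between 176.56 and 389.56, from 36.4 to 51.7% of probes were detected, and the arrays within a group had correlations across probes of 0.9088 to 0.9671. Slides and scan dates were not given, so no batch could be tested. The markers of neutrophils, monocytes, T cells, B cells, NK cells and platelets counted here are those that passed the detection filter. All of them were detected in some array of each vehicle group, apart from Lcn2 in both groups and Selp in that of acetaminophen. Red cell markers summed to a signal of 533400 to 1666000 over all arrays. Blood is a mixture, and in such bulk samples fewer cells of a type and less RNA per cell cannot be told apart. Values below are quantile-normalized log2 signals, a change is the difference of group means on that scale with its SE, and a gene is said to have risen or fallen where limma's Benjamini-Hochberg adjusted p over 17810 probes was below 0.05. A level of a probe is compared only with the same probe.

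Over the 8 comparisons with vehicle rats, 18 of the 25 members passed at least once, where 40.2% of all probes did. Of these, 10 passed in acetaminophen comparisons and in no methyl parathion one (25.4% of all probes), 8 passed after both chemicals (9.24%), and 0 passed after methyl parathion with no call after acetaminophen (5.56%). A call after 1 chemical and not the other is not a test of their difference, which is given below. The other 7 (Dusp5, Map3k1, Mapk9, Mapk10, Mapk12, Mapk8ip1 and Rps6kb2) passed in no comparison with vehicle.

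At 12 h after acetaminophen the phosphatases Dusp4 and Dusp1 had risen most, by 4.15 ± 0.472 and 2.84 ± 0.304 log2 (SE, n = 4 and 4). Mapk13, Map3k8 and Mapk14 rose beside them, and Map2k6, Map2k5, Dusp12, Mapkapk3, Dusp6 and Rps6kb1 fell. That made 11 of 25 members, 5 higher and 6 lower, where 23.4% of all probes passed (9.4% higher and 14% lower). At 24 h Mapk13, Dusp4, Mapk6, Dusp1, Map3k8, Mapkapk2 and Mapk14 rose and Dusp2, Map2k6, Dusp12, Map2k5 and Mapk15 fell. That made 12 of 25, where 24.4% of all probes passed (10.2% higher and 14.3% lower). The median log2 change of the members was 0.07 at 12 h and 0.08 at 24 h, against -0.02 and -0.04 for all probes.

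At 4 h after acetaminophen only Dusp4 and Map2k2 rose (2 of 25 members, where 3.87% of all probes passed, 1.88% higher and 1.99% lower; median change -0.12, all probes -0.03). Neither held under every alternative: 0 members passed without rat 2, 3 or 4 of the 4 h group or vehicle rat 2, 1 passed without vehicle rat 1, 3 or 4, and without rat 1 Dusp1 (1.08 log2) and Dusp6 (-0.55) passed as well. At 168 h Mapk15, Mapkapk2 and Map2k2 rose and Mapk6, Map2k1, Map3k12 and Dusp2 fell (7 of 25 members, where 6.51% of all probes passed, 1.82% higher and 4.68% lower). The median change there was 0 for the members and -0.04 for all probes. Without rat 2 of the 168 h group 2 of the 7 calls were left, and without rat 3 there were 4.

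After methyl parathion 0 members passed limma's test at 4 h, where 0% of all probes passed. Below an unadjusted p of 0.05 were 8 of 25 members and 1546 of 17810 probes. With array weights 2 passed, Map2k2 and Mapkapk2. At 12 h Dusp1 and Mapk15 rose and Mapk6, Map2k1 and Map3k12 fell (5 of 25, where 4.58% of all probes passed, 1.85% higher and 2.73% lower). At 24 h Mapkapk2 and Map2k2 rose (2 of 25, where 1.14% passed, 0.337% higher and 0.803% lower), and at 168 h Mapkapk2, Map2k5 and Map2k2 rose (3 of 25, where 11.3% passed, 5.74% higher and 5.56% lower). Median changes of the members were -0.08, -0.04, -0.01 and 0.03 log2 at 4, 12, 24 and 168 h, against -0.01, -0.05, -0.03 and -0.05 for all probes. At 12 h 0 members passed without treated rat 1, 3 or 4 or vehicle rat 1 or 2, 2 passed without vehicle rat 3, and 8 passed without treated rat 2. At 24 h 0 passed without treated rat 2, 3 or 4 or vehicle rat 1 or 2, and 1 passed without vehicle rat 4, whereas at 168 h 5 passed without treated rat 3.

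**Figure D1:**
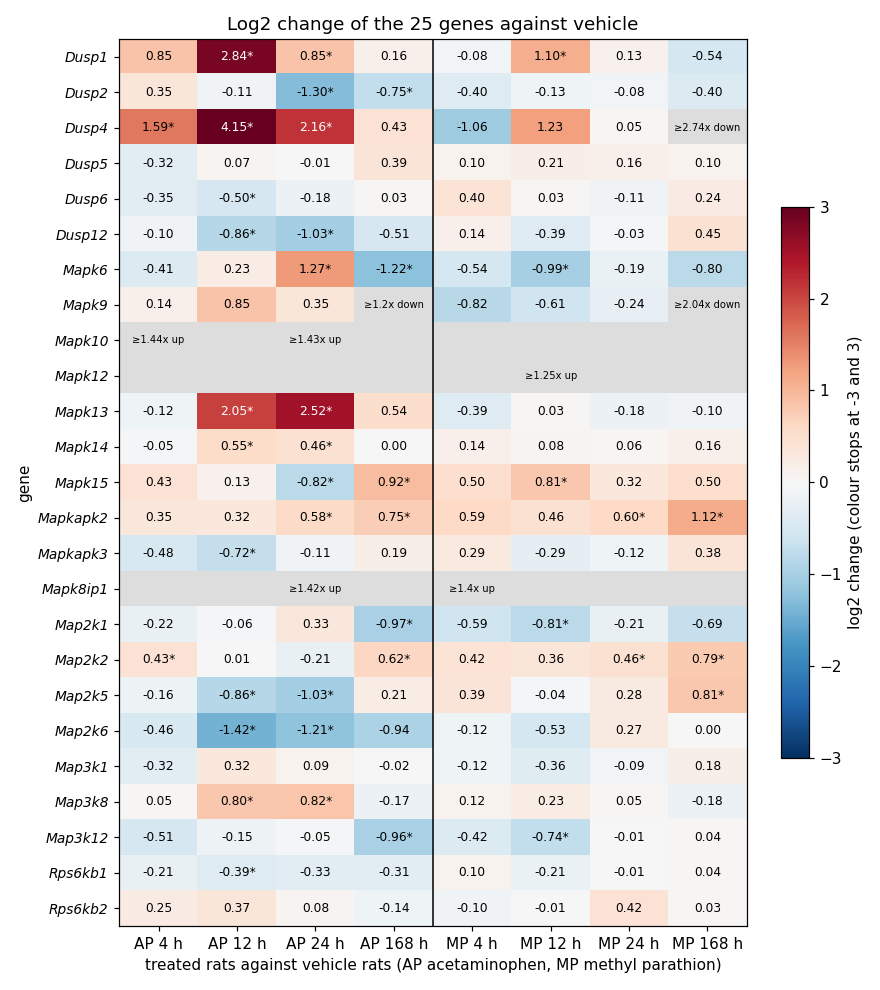
Log2 change of each of the 25 genes (rows) against vehicle rats at 4 times after acetaminophen (AP) and methyl parathion (MP). An asterisk marks an adjusted p below 0.05. Grey cells are blank or hold a fold where a group had no detected array, and the fold printed after ≥ is not a firm limit. The 2 darkest red cells are Dusp4 (4.15) and Dusp1 (2.84) at 12 h after acetaminophen, and the strongest blue one is Map2k6 (-1.42) at the same time.

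Among the phosphatases, Dusp1 (MKP-1) is a nuclear enzyme that acts mainly on p38 and JNK and is an immediate-early gene also induced by glucocorticoids. Its log2 values 12 h after acetaminophen were 19.05, 19.36, 18.60 and 19.38, against 16.78, 16.04, 16.18 and 16.03 in the vehicle rats. All 4 treated rats lay above all vehicle rats, a 7.15-fold higher mean (adjusted p = 4.9e-09, limma). At 24 h the values were 17.22, 16.98, 16.94 and 17.29, still above every acetaminophen vehicle rat, with a change of 0.85 ± 0.304 (adjusted p = 0.0366). That 24 h call was lost without treated rat 1, 2 or 4 or vehicle rat 2, 3 or 4, where adjusted p reached 0.102. Between 24 and 12 h the level differed by -1.99 ± 0.304 (adjusted p = 3.19e-05), so the lower level of the 24 h rats passed the test. At 4 h, with 16.44, 17.64, 16.74 and 17.63, a change of 0.85 ± 0.304 overlapped the vehicle rats (adjusted p = 0.113).

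After methyl parathion Dusp1 rose at 12 h by 1.10 ± 0.304 (adjusted p = 0.0296). The 12 h values were 17.89, 16.74, 17.93 and 17.87, against 16.74, 16.30, 15.88 and 17.11 in the vehicle rats. Rats 1, 3 and 4 lay near each other and above all vehicle rats, and rat 2 lay within them. The call was lost under 8 of 18 alternatives, among them median centring, only the arrays compared and leaving out treated rat 1, 3 or 4 (adjusted p up to 0.127). The rise at 12 h was larger after acetaminophen than after methyl parathion by 1.74 ± 0.431 log2 (adjusted p = 0.0102).

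Dusp4 (MKP-2), a nuclear phosphatase of the ERK and JNK kinases, showed the largest change of any member in the comparisons with vehicle. At 4 h after acetaminophen its values were 9.93, 11.75, 10.46 and 10.61, at 12 h 13.10, 13.12, 13.13 and 13.63, and at 24 h 11.39, 11.27, 11.04 and 11.33, against 9.69, 9.18, 9.05 and 8.48 in the vehicle rats. Every treated rat of these 3 groups was above every acetaminophen vehicle rat, although rat 1 at 4 h was below the detection limit. Only 1 of the 4 vehicle arrays detected the probe, so its vehicle level, and with it the size of the change, is less certain than that of Dusp1. The changes were 1.59 ± 0.472 at 4 h (adjusted p = 0.048), 4.15 ± 0.472 at 12 h (adjusted p = 1.49e-08) and 2.16 ± 0.472 at 24 h (adjusted p = 0.000467). The 4 h call was lost under 11 of 18 alternatives, among them median centring and all 8 vehicle rats (adjusted p up to 0.195). From 12 to 24 h the difference was -1.99 ± 0.472 (adjusted p = 0.00741), the same size as that of Dusp1, and from 24 to 168 h it was -1.73 ± 0.51 (adjusted p = 0.00896).

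Dusp4 did not pass in any comparison of methyl parathion with vehicle. At 12 h the values were 12.43, 9.92, 11.09 and 10.28, against 10.05, 9.55, 9.01 and 10.18 in the vehicle rats, and the groups overlapped (change 1.23 ± 0.472, adjusted p = 0.132). At 168 h no array detected it. Its mean was 2.74-fold lower than in the vehicle rats, a size uncertain without detection, and the change did not pass (adjusted p = 0.0581). The change after acetaminophen exceeded that after methyl parathion by 2.92 ± 0.667 log2 at 12 h (adjusted p = 0.00577) and by 2.11 ± 0.667 at 24 h (adjusted p = 0.0235). The 24 h difference was lost without vehicle rat 4 of either chemical or methyl parathion rat 3 (adjusted p up to 0.0663).

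Dusp2 (PAC-1), a nuclear phosphatase first known from activated lymphocytes, fell at 24 and 168 h after acetaminophen. At 24 h after acetaminophen it stood at 10.91, 10.76, 11.34 and 11.26, and at 168 h at 11.52, 11.65 and 11.68, against 12.40, 12.56, 12.20 and 12.31 in the vehicle rats. Both treated groups lay wholly below the vehicle rats, by -1.30 ± 0.204 (adjusted p = 4.51e-06) and -0.75 ± 0.22 (adjusted p = 0.0353). At 12 h 3 rats gave 11.95, 12.32 and 12.48 and the change was -0.11 ± 0.22, with the flagged spot of rat 2 (14.34) left out of the fit. With that spot kept the 12 h change was 0.41 and did not pass either (adjusted p = 0.38). Keeping it also ended the 168 h call (adjusted p = 0.149), which was lost under 8 of 17 alternatives, also with no filter and without any 1 of the treated rats or vehicle rat 1, 2 or 4. The 24 h call was lost under 0 of 18. The 24 h change was lower than that after methyl parathion by -1.22 ± 0.289 (adjusted p = 0.00239).

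Dusp12, an atypical phosphatase without the kinase-binding region of the MKPs, fell at both middle times. It measured 10.01, 9.89, 10.04 and 9.73 at 12 h and 10.09, 9.82, 9.66 and 9.42 at 24 h, against 10.75, 10.51, 10.96 and 10.89 in the vehicle rats, with no overlap. The changes were -0.86 ± 0.241 (adjusted p = 0.00655) and -1.03 ± 0.241 (adjusted p = 0.00107). Dusp6, a cytoplasmic phosphatase specific for ERK, fell by 0.50 ± 0.173 log2 at 12 h (adjusted p = 0.0298), with 13.60, 13.76, 13.85 and 13.52 against 14.04, 14.11, 14.25 and 14.34 in the vehicle rats. That call was lost under 5 of 18 alternatives, which were median centring and leaving out treated rat 1 or 4 or vehicle rat 3 or 4 (adjusted p up to 0.323). Dusp5, a nuclear phosphatase specific for ERK, differed by 0.07 ± 0.143 at 12 h (95% interval -0.22 to 0.36) and by -0.01 ± 0.143 at 24 h (-0.29 to 0.28), and the groups overlapped at both times.

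**Figure D2:**
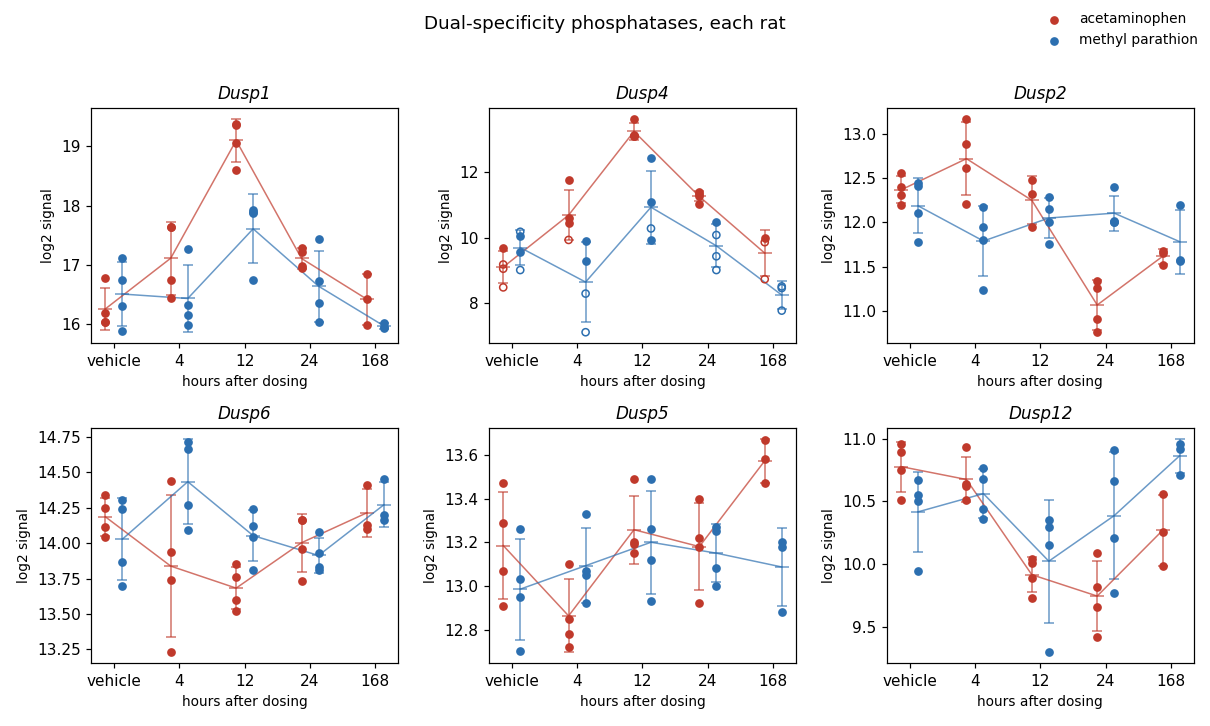
Log2 signal of the 6 phosphatase genes in each rat (points; open points are arrays with a signal-to-noise ratio below 3) by hours after dosing, with group means joined and bars of 1 SD. At 12 h after acetaminophen Dusp1 lies between 18.60 and 19.38 and Dusp4 between 13.10 and 13.63, above every other group, while Dusp2 is lowest at 24 h after acetaminophen.

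The p38 branch was represented by 3 kinases and their substrates. Mapk13 (p38 delta) was detected in 1 of 4 vehicle arrays and in all 8 arrays at 12 and 24 h after acetaminophen. Its values were 9.88, 10.63, 10.36 and 10.68 at 12 h and 10.79, 10.96, 10.81 and 10.87 at 24 h, against 8.65, 8.28, 8.29 and 8.12 in the vehicle rats. No treated rat overlapped them, and the changes were 2.05 ± 0.535 (adjusted p = 0.0033) and 2.52 ± 0.535 (adjusted p = 0.000322). Both are uncertain in size because most vehicle arrays were below the detection limit. After methyl parathion the change was 0.03 ± 0.535 at 12 h and -0.18 ± 0.535 at 24 h, and neither passed. The chemicals differed by 2.71 ± 0.756 at 24 h (adjusted p = 0.00969). At 12 h the difference of 2.03 ± 0.756 did not pass (adjusted p = 0.103).

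Mapk14 (p38 alpha), the p38 kinase best known for inflammatory signalling, had a smaller rise. At 12 h it measured 15.55, 15.42, 14.98 and 15.47 and at 24 h 15.17, 15.30, 15.28 and 15.32, against 14.80, 14.83, 14.80 and 14.79 in the vehicle rats. All treated rats lay above all acetaminophen vehicle rats, and the changes were 0.55 ± 0.142 (adjusted p = 0.00306) and 0.46 ± 0.142 (adjusted p = 0.0132). The highest methyl parathion vehicle rat, at 14.99, lay above the lowest 12 h rat. At 168 h the values were 14.85, 14.71 and 14.85, lower than at 24 h by -0.46 ± 0.154 (adjusted p = 0.0217). The difference between the chemicals did not pass (0.47 ± 0.201 at 12 h, adjusted p = 0.168, and 0.41 ± 0.201 at 24 h, adjusted p = 0.182). Mapk12 (p38 gamma) was detected in 3 of 38 arrays and gives no level here.

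Of the kinases activated by p38, Mapkapk2 (MK2), which controls the stability of cytokine mRNAs, rose at 24 and 168 h after both chemicals. After acetaminophen it had 14.35, 14.16, 14.01 and 14.10 at 24 h and 14.21, 14.41 and 14.33 at 168 h, against 13.59, 13.20, 13.57 and 13.92 in the vehicle rats, changes of 0.58 ± 0.145 (adjusted p = 0.00193) and 0.75 ± 0.157 (adjusted p = 0.00419). After methyl parathion it had 13.56, 14.27, 13.98 and 14.04 at 24 h and 14.36, 14.68 and 14.44 at 168 h, against 13.24, 13.32, 13.45 and 13.46. All of these rats lay above their vehicle rats, by 0.60 ± 0.145 (adjusted p = 0.0307) and 1.12 ± 0.157 (adjusted p = 6.13e-05). At 4 h after methyl parathion its values of 14.23, 13.87, 13.82 and 13.93 also lay above all methyl parathion vehicle rats. The change of 0.59 ± 0.145 was near that at 24 h but did not pass (adjusted p = 0.184), though it did with array weights. At 12 h the change was 0.46 ± 0.145 (adjusted p = 0.0578), again without overlap. The 168 h rise after methyl parathion held under every alternative run, whereas after acetaminophen median centring in place of quantile normalization gave 0.34 at 168 h (adjusted p = 0.445), and after methyl parathion at 24 h 0.36 (adjusted p = 0.479). That 24 h call was lost under 7 of 18 alternatives. The others were only the arrays compared and leaving out treated rat 2, 3 or 4 or vehicle rat 1 or 2. Mapkapk3 fell at 12 h after acetaminophen by 0.72 ± 0.244 log2 (adjusted p = 0.0275), with 10.61, 10.61, 11.21 and 10.41 against 11.39, 11.14, 11.61 and 11.58, where rat 3 overlapped the vehicle rats. The Mapkapk3 call was lost under 6 of 18 alternatives, which were median centring and leaving out treated rat 1, 2 or 4 or vehicle rat 3 or 4 (adjusted p up to 0.115).

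The JNK branch was thinly covered. Mapk9 (JNK2) was detected in 20 of 38 arrays, among them all 4 at 12 h after acetaminophen and 2 of the 4 vehicle arrays. Its 12 h values of 8.44, 9.20, 8.63 and 9.07, against 8.64, 6.82, 8.74 and 7.76, gave a change of 0.85 ± 0.554 that did not pass (adjusted p = 0.326). At 168 h no array of either chemical detected it. Its mean was 1.2-fold lower after acetaminophen and 2.04-fold lower after methyl parathion, sizes uncertain without detection, and neither change passed. Mapk10 (JNK3) and the JNK scaffold Mapk8ip1, both known mainly from neurons, were detected in 4 and 3 of 38 arrays.

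Of the atypical MAP kinases, Mapk6 (ERK3) moved both ways. At 24 h after acetaminophen it stood at 12.51, 12.10, 12.28 and 12.04 and at 168 h at 9.86, 9.53 and 9.84, against 10.97, 10.98, 11.13 and 10.79 in the vehicle rats. The first group lay wholly above and the second wholly below the vehicle rats, by 1.27 ± 0.274 (adjusted p = 0.000412) and -1.22 ± 0.296 (adjusted p = 0.0112). At 12 h the change was 0.23 ± 0.274, and the rise from 12 to 24 h passed in its own test (1.04 ± 0.274, adjusted p = 0.0187). Between 24 and 168 h the difference was -2.49 ± 0.296 (adjusted p = 2.76e-08), a larger one than for any other member in that comparison.

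After methyl parathion Mapk6 fell at 12 h by 0.99 ± 0.274 log2 (adjusted p = 0.0286), with 9.72, 10.17, 10.01 and 9.42 against 11.11, 11.03, 10.43 and 10.72 and no overlap. The chemicals differed by 1.22 ± 0.388 at 12 h (adjusted p = 0.0484) and by 1.46 ± 0.388 at 24 h (adjusted p = 0.00636). The 12 h difference was lost under 17 of 25 alternatives, among them median centring, no filter, the replicate block and leaving out any 1 acetaminophen or acetaminophen vehicle rat (adjusted p up to 0.164), and the 24 h difference under 0 of 25. The 12 h fall after methyl parathion was lost under 7 of 18 alternatives (adjusted p up to 0.127), and the 168 h fall after acetaminophen without treated rat 2 (adjusted p = 0.0792).

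Mapk15 (ERK7 or ERK8) had changes of the opposite sign to Mapk6 at 24 and 168 h after acetaminophen. At 24 h after acetaminophen it measured 10.20, 9.99, 10.19 and 10.27 and at 168 h 11.45, 12.06 and 12.21, against 11.06, 10.98, 10.86 and 11.03 in the vehicle rats. The changes were -0.82 ± 0.216 (adjusted p = 0.00354) and 0.92 ± 0.233 (adjusted p = 0.0138), each without overlap. The 168 h rise shrank to 0.45 under median centring (adjusted p = 0.36) and was also lost without treated rat 2 or 3. After methyl parathion Mapk15 rose at 12 h by 0.81 ± 0.216 (adjusted p = 0.0236), with 11.74, 11.52, 12.45 and 11.90 against 11.10, 11.13, 11.12 and 11.03, and by 0.51 under median centring (adjusted p = 0.323).

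**Figure D3:**
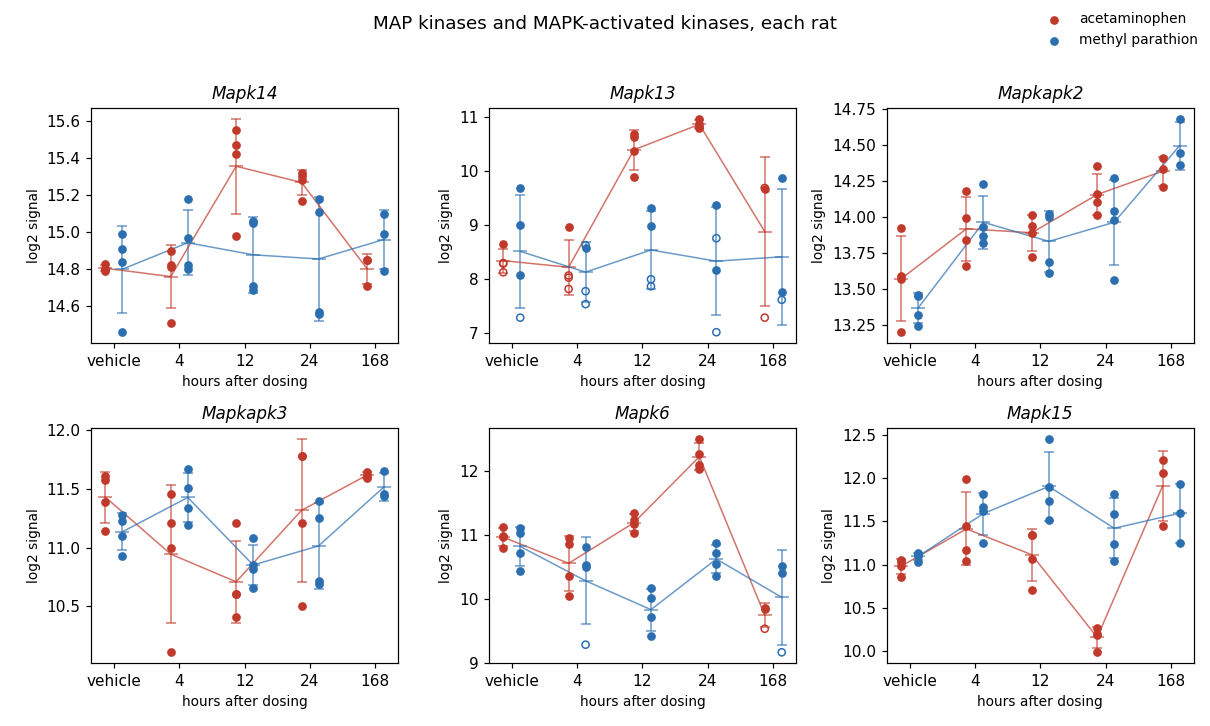
Log2 signal of 4 MAP kinases and 2 MAPK-activated kinases in each rat (points; open points are arrays with a signal-to-noise ratio below 3) by hours after dosing, with group means joined and bars of 1 SD. Mapk13 and Mapk6 are highest at 24 h after acetaminophen (10.79 to 10.96 and 12.04 to 12.51), where Mapk15 is lowest (9.99 to 10.27).

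In the MAP2K tier 2 of 4 genes fell and 0 rose at each of 12 and 24 h after acetaminophen, where 14% and 14.3% of all probes were lower. Map2k5 (MEK5), the kinase of the large MAP kinase ERK5, measured 11.72, 11.64, 11.83 and 11.84 at 12 h and 11.66, 11.43, 11.49 and 11.80 at 24 h, against 12.76, 12.30, 12.44 and 12.97 in the vehicle rats. Both groups lay wholly below, by -0.86 ± 0.165 (adjusted p = 9.48e-05) and -1.03 ± 0.165 (adjusted p = 6.1e-06). At 168 h it was back at 12.79, 12.81 and 12.90, higher than at 24 h by 1.24 ± 0.179 (adjusted p = 1.04e-06). After methyl parathion Map2k5 rose at 168 h, with 13.15, 13.30 and 12.94 against 12.56, 12.16, 12.27 and 12.31 (0.81 ± 0.179, adjusted p = 0.00314), though not under median centring (0.61, adjusted p = 0.141). The chemicals differed in opposite direction to Mapk6, by -0.82 ± 0.234 at 12 h (adjusted p = 0.025) and -1.31 ± 0.234 at 24 h (adjusted p = 9.37e-05).

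Map2k6 (MKK6), which activates p38, fell while the p38 kinases Mapk13 and Mapk14 rose. Its values were 9.61, 9.35, 9.56 and 8.47 at 12 h and 9.57, 9.06, 9.65 and 9.54 at 24 h, against 10.93, 10.53, 10.43 and 10.76 in the vehicle rats. The groups did not overlap (-1.42 ± 0.306, adjusted p = 0.000451, and -1.21 ± 0.306, adjusted p = 0.00237), and 1 array of each treated group was below the detection limit. The 24 h change was lower than after methyl parathion by -1.48 ± 0.433 (adjusted p = 0.0135).

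Map2k1 and Map2k2 (MEK1 and MEK2), closely related kinases of the ERK branch, changed in opposite directions at 168 h after acetaminophen. Map2k1 fell at 168 h after acetaminophen, to 11.72, 11.28 and 11.11, against 12.31, 12.45, 12.37 and 12.23 in the vehicle rats (-0.97 ± 0.241, adjusted p = 0.0127). It also fell 12 h after methyl parathion, to 11.30, 11.85, 11.38 and 11.20, against 12.32, 12.14, 12.29 and 12.21 (-0.81 ± 0.223, adjusted p = 0.0279). Neither treated group overlapped its vehicle rats. The first call was lost without treated rat 2 or 3 (adjusted p up to 0.0739), and the second under 8 of 18 alternatives (adjusted p up to 0.111).

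Map2k2 rose in the same 168 h rats, with 14.96, 15.11 and 15.20 after acetaminophen against 14.39, 14.26, 14.57 and 14.67 (0.62 ± 0.127, adjusted p = 0.00353). At 168 h after methyl parathion it had 15.09, 15.24 and 15.05, against 14.16, 14.36, 14.52 and 14.30 (0.79 ± 0.127, adjusted p = 0.000202). Smaller rises were 0.43 ± 0.117 at 4 h after acetaminophen (adjusted p = 0.0293) and 0.46 ± 0.117 at 24 h after methyl parathion (adjusted p = 0.0409), each without overlap. Under median centring the 168 h rises of Map2k2 were 0.28 (adjusted p = 0.528) and 0.73 (adjusted p = 0.0528), and those at 4 and 24 h did not pass either. In all, the call at 4 h after acetaminophen was lost under 8 of 18 alternatives (adjusted p up to 0.54). That at 24 h after methyl parathion was lost under 9 of 18 (adjusted p up to 0.554).

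Of the MAP3K tier, Map3k8 (Tpl2 or COT), which links Toll-like and tumour necrosis factor receptors to MEK in myeloid cells, rose after acetaminophen. It measured 14.42, 14.41, 14.46 and 14.27 at 12 h and 14.68, 14.40, 14.14 and 14.45 at 24 h, against 13.80, 13.22, 13.74 and 13.62 in the vehicle rats. No rat overlapped, and the changes were 0.80 ± 0.15 (adjusted p = 7.52e-05) and 0.82 ± 0.15 (adjusted p = 4.13e-05). After methyl parathion they were 0.23 ± 0.15 and 0.05 ± 0.15 and did not pass. The difference passed at 24 h (0.78 ± 0.213, adjusted p = 0.00805) and not at 12 h (0.57 ± 0.213, adjusted p = 0.101).

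Map3k12 (DLK), a kinase of the JNK branch known mainly from neurons, fell with Map2k1 and Mapk6 at 168 h after acetaminophen and 12 h after methyl parathion. Its values were 10.91, 10.55 and 10.50 against 11.46, 11.83, 11.53 and 11.63 in the first case (-0.96 ± 0.22, adjusted p = 0.00737). They were 10.49, 10.53, 10.65 and 10.70 against 11.49, 11.41, 11.39 and 11.05 in the second (-0.74 ± 0.203, adjusted p = 0.0271), and neither pair of groups overlapped. The first call was lost without treated rat 2 (adjusted p = 0.0529), and the second under 8 of 18 alternatives (adjusted p up to 0.1). Map3k1 (MEKK1), which acts on the JNK branch, differed by 0.32 ± 0.196 at 12 h after acetaminophen (95% interval -0.08 to 0.71) and did not pass. Rps6kb1, an S6 kinase acting downstream of mTORC1, fell by 0.39 ± 0.145 log2 at 12 h after acetaminophen (adjusted p = 0.0444), with 11.94, 12.02, 11.71 and 12.08 against 12.46, 12.26, 12.25 and 12.35. That call was lost under 11 of 18 alternatives, among them median centring, no filter, the replicate block, all 8 vehicle rats and leaving out any 1 of the arrays other than treated rat 4 (adjusted p up to 0.262). Its relative Rps6kb2 differed by 0.37 ± 0.201 there and overlapped the vehicle rats.

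**Figure D4:**
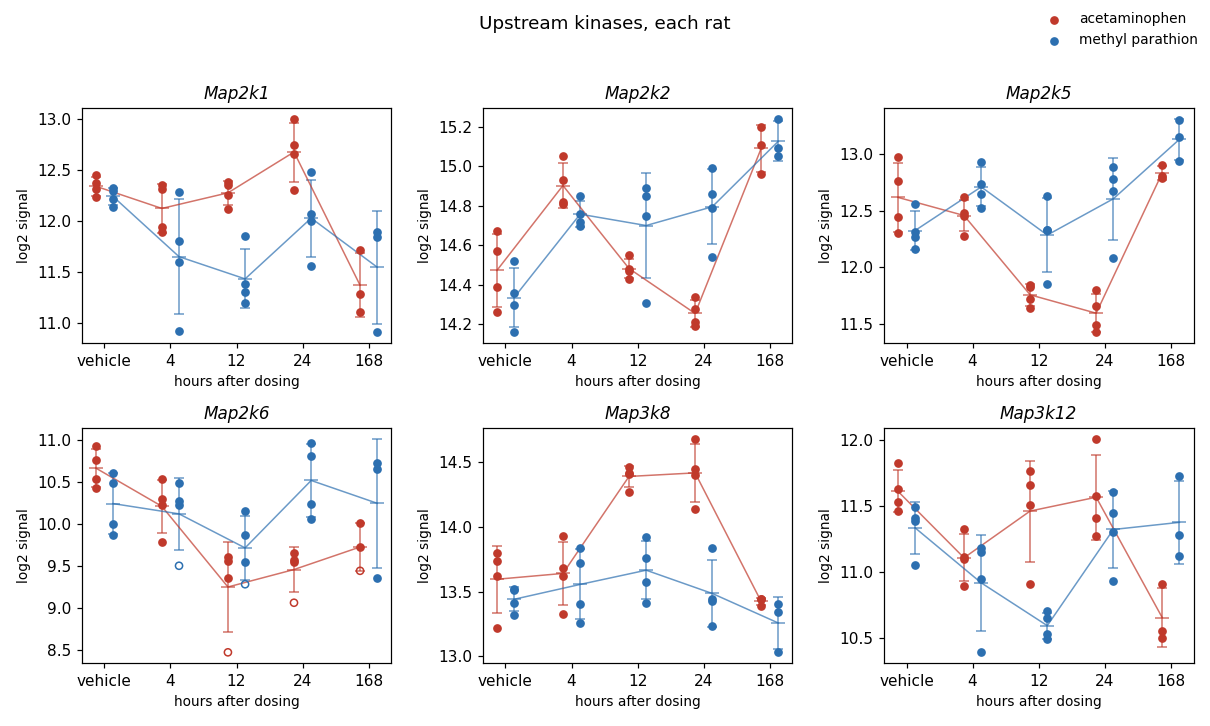
Log2 signal of the 4 MAP2K genes and of Map3k8 and Map3k12 in each rat (points; open points are arrays with a signal-to-noise ratio below 3) by hours after dosing, with group means joined and bars of 1 SD. Map3k8 lies higher (14.14 to 14.68) and Map2k5 lower (11.43 to 11.84) at 12 and 24 h after acetaminophen than in the acetaminophen vehicle rats, and Map2k2 lies between 14.96 and 15.24 at 168 h after both chemicals.

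The chemicals were set against each other as the change after acetaminophen minus the change after methyl parathion, each against its own vehicle rats. At 12 h 4 of 25 differences passed (Dusp4, Dusp1, Mapk6 and Map2k5), where 6.86% of all probes passed (3.74% higher and 3.12% lower). At 24 h 10 passed, where 17% of all probes passed (7.83% higher and 9.16% lower). Of these, Mapk13, Dusp4, Mapk6 and Map3k8 were higher and Map2k6, Map2k5, Dusp2, Mapk15, Dusp12 and Map2k2 lower after acetaminophen. Those not given above were Mapk15 at -1.14 ± 0.305 (adjusted p = 0.00671), Dusp12 at -1 ± 0.341 (adjusted p = 0.0379) and Map2k2 at -0.67 ± 0.166 (adjusted p = 0.00341). The Dusp12 difference was lost under 10 of 25 alternatives, among them median centring, only the arrays compared and leaving out any 1 of 8 arrays (adjusted p up to 0.362). Median centring also ended the 24 h differences of Map2k6, Dusp2, Mapk15 and Map2k2 and the 12 h one of Map2k5. At 12 h 2 of the differences were left without treated rat 2 or vehicle rat 1 or 4 of acetaminophen, or without vehicle rat 2 of methyl parathion.

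At 4 h 0 of 25 differences passed limma's test, where 0% of all probes passed. There 7 members and 2049 of 17810 probes were below an unadjusted p of 0.05, and 1 member passed with array weights. At 4 h 2 differences passed without acetaminophen rat 1. At 168 h 0 passed, where 1.81% of all probes passed (1.52% higher and 0.298% lower). An unadjusted p below 0.05 was reached by 4 members and 2957 of 17810 probes, and 1 member passed without methyl parathion rat 1. Mapkapk2, which rose after both chemicals at 24 h, differed between them by -0.01 ± 0.205 (95% interval -0.43 to 0.41). The vehicle groups of the chemicals differed in 0 of 25 members under limma, where 0% of all probes passed. Unadjusted p was below 0.05 in 0 members and in 1541 of 17810 probes.

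**Figure D5:**
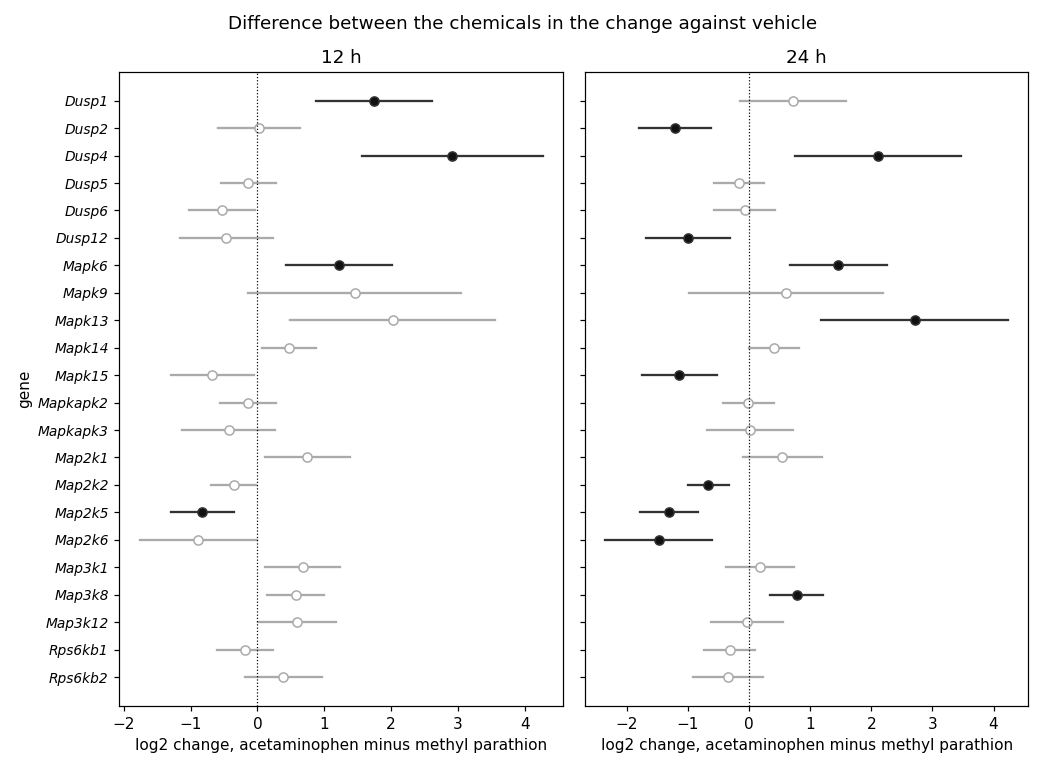
Difference between the chemicals (change after acetaminophen minus change after methyl parathion, log2, points with 95% intervals) at 12 and 24 h, for the 22 genes detected in at least 20 arrays; filled points have an adjusted p below 0.05. Dusp4 lies right of 0 at both times (2.92 and 2.11), and Map2k5 left of 0 at both (-0.82 and -1.31).

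Within the acetaminophen time course 5 of 25 members differed between 24 and 12 h, where 4.32% of all probes passed (2.15% higher and 2.17% lower). Mapk6 was higher, and Dusp1, Dusp4, Dusp2 (-1.18 ± 0.22, adjusted p = 0.000556) and Mapk15 (-0.95 ± 0.216, adjusted p = 0.00474) were lower at 24 h. Between 168 and 24 h 10 members differed, where 26.1% of all probes passed (12.8% higher and 13.3% lower). Mapk15 (1.74 ± 0.233, adjusted p = 2.63e-07), Map2k5 and Map2k2 (0.83 ± 0.127, adjusted p = 2.63e-06) were higher at 168 h. Mapk6, Mapk13 (-1.99 ± 0.578, adjusted p = 0.00809), Dusp4, Map2k1 (-1.31 ± 0.241, adjusted p = 5.08e-05), Map3k8 (-0.99 ± 0.162, adjusted p = 8.51e-06), Map3k12 (-0.92 ± 0.22, adjusted p = 0.00138) and Mapk14 were lower. Calls lost were those of Mapk6 between 24 and 12 h under median centring or without rat 1 of either group (adjusted p up to 0.118), and between 168 and 24 h those of Dusp4 and Mapk14 without 168 h rat 2, Mapk13 without 168 h rat 1 and Map2k2 under median centring.

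Genes around the cascade were taken from lists chosen with earlier results of these data known. Those named had the smallest p of their list at 12 or 24 h after acetaminophen, so the choice favoured changes at these times. Of all probes 9.4% rose and 14% fell at 12 h after acetaminophen, and 10.2% and 14.3% at 24 h. The shares at other times are those given with the members above. Of 28 genes of interleukin 1, Toll-like and tumour necrosis factor signalling 15 were tested, and 10 rose and 0 fell at 12 h after acetaminophen (median change 1.56), 12 and 0 at 24 h (median 1.40). Gadd45a, a stress gene whose product can act on the kinase MEKK4, rose by 3.09 ± 0.238 at 12 h (adjusted p = 9.26e-12) and 3.14 ± 0.238 at 24 h (adjusted p = 1.07e-12). Tlr2, a receptor of bacterial lipoproteins, rose by 2.45 ± 0.215 and 2.62 ± 0.215 at those times. Myd88, the adaptor of these receptors, rose by 1.91 ± 0.172 at 12 h, and Il1rap, a chain of the interleukin 1 receptor, by 4.68 ± 0.366 at 24 h. The same list had 3 rises and 0 falls at 4 h and 0 rises and 2 falls at 168 h. After methyl parathion it had 0, 3, 0 and 1 rises and 0 falls at 4, 12, 24 and 168 h.

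Of 29 genes of transcription factors and early genes that respond to MAP kinases 17 were tested. At 12 h after acetaminophen 11 rose and 3 fell (median 1.18), and at 24 h 10 rose and 2 fell (median 1.17). Ier3, an early gene product phosphorylated by ERK, rose by 2.67 ± 0.231 and 4.40 ± 0.231, and Junb, a component of AP-1, by 2.01 ± 0.241 at 12 h. Myc fell by 1.39 ± 0.181 log2 at 12 h and Nr4a1, an orphan nuclear receptor, by 1.66 ± 0.215 at 24 h, when Max, the partner of Myc, rose by 1.79 ± 0.249. At 4 and 168 h 3 and 0 rose and 1 and 1 fell, and after methyl parathion 0, 1, 1 and 1 rose and 0, 1, 0 and 2 fell at the 4 times.

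Of 18 genes of the Ras and Raf input 7 were tested by 8 probes. Of these probes 3 rose at 12 h and 2 at 24 h after acetaminophen (median changes 0.36 and 0.40). Rasgrp4, a Ras activator of myeloid and mast cells, rose by 1.88 ± 0.412 and 2.20 ± 0.412, and the 2 probes of the adaptor Grb2 rose by 0.49 ± 0.107 and 0.73 ± 0.192 at 12 h. After acetaminophen 0 of its probes fell at any time, and after methyl parathion 1 fell at 12 h and 1 at 168 h. Of 23 further regulators 12 were tested. At each of 12 and 24 h after acetaminophen 2 of them rose and 4 fell (median changes -0.05 and -0.12). Zfp36 (tristetraprolin), an mRNA-destabilising substrate of MK2, rose by 1.89 ± 0.188 and 1.61 ± 0.188. Pebp1, an inhibitor of Raf, fell by 0.92 ± 0.107 log2 at 12 h, and Spry2, an inhibitor of Ras signalling, by 1.76 ± 0.331 at 24 h, when 2 of 4 treated arrays detected it. Mknk2, a kinase downstream of ERK and p38, fell by 0.58 ± 0.144 and 1.01 ± 0.144. In this list 0 rose at 4 and 168 h after acetaminophen, while 1 and 3 fell, and after methyl parathion 0, 0, 0 and 1 rose and 0, 2, 1 and 2 fell.

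Markers of cell types also changed at 12 and 24 h after acetaminophen, when 9.4% and 10.2% of all probes rose and 14% and 14.3% fell. Of 14 neutrophil markers 8 were tested, and 7 rose and 0 fell at each time (median changes 1.56 and 3.45). Their summed signal was 2878000 to 3828000 at 12 h and 2364000 to 3816000 at 24 h, against 1235000 to 1761000 in the vehicle rats, where Lcn2 was detected in no array. Of 16 T cell markers all 11 tested fell at both times (median -1.74 and -1.41). Their summed signal was 77740 to 106100 at 12 h and 93310 to 138900 at 24 h, against 259000 to 316300. Of 12 NK cell markers 9 were tested, of which 1 rose and 3 fell at 12 h and all 9 fell at 24 h, with a sum of 963400 to 1334000 at 12 h and 219700 to 411800 at 24 h, against 866100 to 1151000. Of 9 B cell markers 3 were tested, and 3, 2 and 3 fell at 4, 12 and 24 h after acetaminophen, with sums of 2230 to 24780, 7433 to 13110 and 4646 to 8735, against 28510 to 42140. Of 9 monocyte markers 4 were tested, and 2 rose at 12 h, while 2 rose and 1 fell at 24 h, with sums of 1880000 to 2272000 and 1318000 to 2275000, against 856400 to 1780000. Of 12 platelet markers 5 were tested, and 2 rose at 12 h and 1 at 24 h (median changes 1.39 and 0.53), with sums of 15460 to 30030 and 9727 to 16770, against 8727 to 24420.

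After methyl parathion 10 of the 11 T cell markers fell at 12 h (median -1.05), with a sum of 91870 to 220100, against 221100 to 299000 in its vehicle rats. There 1 neutrophil marker rose (sum 1793000 to 3158000, against 1141000 to 2926000), 1 monocyte marker rose, and 1 NK and 1 B cell marker fell. At 168 h after acetaminophen 4 of 11 T cell markers fell (sum 156800 to 192500), 1 neutrophil marker rose (sum 1710000 to 2295000) and 1 monocyte marker fell (sum 1050000 to 1365000), and at 168 h after methyl parathion 0 of 11 passed (sum 195300 to 246000), while 1 neutrophil marker rose and 1 fell. At 4 h after acetaminophen 6 T cell markers fell, 1 monocyte marker rose (sum 779300 to 2028000) and 3 of the 5 platelet markers rose, with a platelet sum of 14210 to 81470, against 8727 to 24420. Of 12 red cell markers 5 were tested, and 1 rose at 4 h after acetaminophen and 0 changed in the other comparisons with vehicle. Of all probes 1.85% rose and 2.73% fell at 12 h after methyl parathion, and 5.74% and 5.56% at 168 h. After acetaminophen 1.88% rose and 1.99% fell at 4 h, and 1.82% and 4.68% at 168 h.

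The markers also differed where the chemicals and the later times were compared. Of all probes 3.74% were higher and 3.12% lower in the difference between the chemicals at 12 h, and 7.83% and 9.16% at 24 h. Between 24 and 12 h after acetaminophen 2.15% were higher and 2.17% lower, and between 168 and 24 h 12.8% and 13.3%. In the difference between the chemicals (acetaminophen minus methyl parathion) at 24 h 5 of 8 neutrophil markers were higher (median 3.33), with 1 monocyte and 1 platelet marker, and 9 of 11 T cell, 8 of 9 NK cell and all 3 B cell markers were lower (medians -1.05, -1.83 and -2.78). At 12 h 4 neutrophil markers and 1 platelet marker were higher and 3 T cell markers lower. Between 24 and 12 h after acetaminophen 3 neutrophil markers were higher and 7 of 9 NK cell markers and 1 red cell marker lower. Between 168 and 24 h 7 of 9 NK cell, 5 of 11 T cell and all 3 B cell markers were higher, and 5 of 8 neutrophil markers (median -3.32), 2 monocyte markers and 1 platelet marker were lower. The part of these cell type markers in the changes of the kinases and phosphatases was not tested.

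Promoter sequence is shown for Dusp1 and Map3k8, which rose from 12 h after acetaminophen, for Mapk6, which rose at 24 h, and for Dusp2, which fell at 24 h. RefSeq windows on GRCr8, from 250 bases before to 50 after the annotated start, matched 21 of the 25 members, and Dusp4 was not among them. The windows printed are Dusp1 (chr10:17184603-17184902, plus strand), Map3k8 (chr17:58077925-58078224, plus), Mapk6 (chr8:85050187-85050486, minus) and Dusp2 (chr3:135009386-135009685, plus). They read 5′ to 3′, and capitals mark matches on either strand. The letters sought were the cyclic AMP response element (CRE) TGACGTCA, its shorter core TGACG and the loose AP-1-like pattern TGANTCA, where N is any base.
Dusp1: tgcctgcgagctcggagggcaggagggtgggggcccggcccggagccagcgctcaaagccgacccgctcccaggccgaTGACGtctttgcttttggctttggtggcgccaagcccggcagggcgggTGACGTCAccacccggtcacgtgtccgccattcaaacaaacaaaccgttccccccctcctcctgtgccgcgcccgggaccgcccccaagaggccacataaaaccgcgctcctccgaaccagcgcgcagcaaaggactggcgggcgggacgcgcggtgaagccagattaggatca
Map3k8: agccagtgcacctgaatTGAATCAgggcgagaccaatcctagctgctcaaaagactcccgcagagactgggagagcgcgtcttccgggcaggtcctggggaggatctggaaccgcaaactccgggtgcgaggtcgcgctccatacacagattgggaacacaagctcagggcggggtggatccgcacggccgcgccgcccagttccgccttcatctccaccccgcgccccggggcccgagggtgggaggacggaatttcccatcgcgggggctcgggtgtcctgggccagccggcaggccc
Mapk6: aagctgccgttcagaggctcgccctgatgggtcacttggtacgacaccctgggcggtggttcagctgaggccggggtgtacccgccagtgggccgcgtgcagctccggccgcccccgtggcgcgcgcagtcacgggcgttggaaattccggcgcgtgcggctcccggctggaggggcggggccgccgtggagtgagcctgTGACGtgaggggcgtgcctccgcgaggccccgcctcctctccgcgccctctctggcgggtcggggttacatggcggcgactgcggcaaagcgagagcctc
Dusp2: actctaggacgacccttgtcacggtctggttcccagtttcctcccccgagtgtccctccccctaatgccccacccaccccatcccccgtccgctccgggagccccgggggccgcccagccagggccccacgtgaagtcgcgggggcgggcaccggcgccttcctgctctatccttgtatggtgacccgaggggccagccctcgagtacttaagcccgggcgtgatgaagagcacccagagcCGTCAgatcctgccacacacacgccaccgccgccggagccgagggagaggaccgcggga

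The full CRE lies 124 bases before the Dusp1 start, and it contains the core on each strand, so these matches overlap. A separate core lies 172 bases before that start, 50 before that of Mapk6 and, on the other strand, 9 before that of Dusp2. Map3k8 has a match to the AP-1-like pattern, with the letters TGAATCA, 233 bases before its start. The full CRE was found in 2 of the 21 member windows (Dusp1 and Mapk10) and in 1.83% of 33469 RefSeq promoter windows of the same length. The core was in 9 of 21 and in 21.2% of all windows, and the AP-1-like pattern in 1 of 21 and 7.33%. The STAT site TTCNNNGAA and the TATA box TATAAA were in 0 of 21, and in 8.87% and 14.2% of all windows. The member windows were richer in G and C (median 64.7%, all windows 51.7%). A match describes letters in these windows and says nothing of binding.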

How the data were processed

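Leukocyte RNA of 38 rats was measured on 1-colour rat genome arrays, 1 array per rat, in 10 groups. Per the labels' protocols, cRNA labelled with digoxygenin was detected by chemiluminescence. For each array the authors deposited background-subtracted linear intensities, 1 per probe, not scaled to other arrays. The signal-to-noise ratio they deposited beside them is a score from the scanner. Another deposited column, of other kind, holds quality flags as whole numbers. The authors' series table holds log2 values, and these equalled the log2 of the intensities after quantile normalization to within 5e-09. The array's build and the scanner software are not given in the sources used here.

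The log2 values were floored at their 5th percentile (6.40), and values flagged at 5000 or above (0.9598%) were treated as missing. Probes with a signal-to-noise ratio of at least 3 in at least 3 arrays and 2 or more values in every group were tested (17810 of 17819). Of 26857 gene probes 6104 had 1 symbol, 70 several and 20683 none in the platform annotation, and 322 control spots were left out. The 10 groups entered limma 3.58.1 (R 4.3.3) as 1 factor (lmFit and eBayes with trend, 28 residual and 8.31 prior degrees of freedom), with two-sided tests and Benjamini-Hochberg adjustment over all tested probes, and the script was tested on simulated data. Where no array of 1 group detected a probe, the fold used its signal or the array's lowest detected signal of any probe, whichever was higher. No fold is given where neither group detected it. For Dusp4 and Mapk9 at 168 h the probe's own signal was the higher, so those folds are plain differences of means and not limits. The number of arrays limits the precision.

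Members, lists and the naming rule were chosen with earlier results of these data known. The rule named members that passed (up to 8 each way per comparison with vehicle and 4 each way per difference), the member of each family with the smallest p and the highest vehicle level, core members by role, and the 3 genes of each pathway list with the smallest p at 12 and 24 h after acetaminophen. Alternatives were median centring, own quantile normalization, array weights, other filters, no floor, kept flagged spots, all 8 vehicle rats, only the arrays compared, a replicate block and leaving out each array. Own quantile normalization gave the series values again, so it could not differ from the main fit.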

Additional observations from a re-analysis of the deposited data

Results flagged for a closer look

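In 6 of 199 groups of 4 rats 1 rat lay apart from the other 3, and chance alone flags about 1 group in 20. Dusp1 at 12 h after methyl parathion was 16.74 in rat 2, with 17.87 to 17.93 in the others. Dusp2 at 24 h after methyl parathion was 12.4 in rat 3, with 12 to 12.02 in the others. At 12 h after acetaminophen Dusp4 was 13.63 in rat 4 (13.1 to 13.13 in the others) and Dusp5 was 13.49 in rat 3 (13.15 to 13.2). Mapk12 at 24 h after acetaminophen was 9.38 in rat 4, with 7.41 to 7.71 in the others, and was detected in none of them. Mapk14 in the acetaminophen vehicle group was 14.83 in rat 2, with 14.79 to 14.8 in the others.

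The change against vehicle differed between the chemicals in 14 of 100 tests of the difference (acetaminophen minus methyl parathion, log2). Of all probes 0, 6.86, 17 and 1.81% passed at 4, 12, 24 and 168 h. At 12 h the members that differed were Dusp4 at 2.92, Dusp1 at 1.74, Mapk6 at 1.22 and Map2k5 at -0.82. At 24 h the higher ones after acetaminophen were Mapk13 at 2.71, Dusp4 at 2.11, Mapk6 at 1.46 and Map3k8 at 0.78. The lower ones were Map2k6 at -1.48, Map2k5 at -1.31, Dusp2 at -1.22, Mapk15 at -1.14, Dusp12 at -1 and Map2k2 at -0.67.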

How the results depend on the processing

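Of 71 member values that passed, array weights, the filter by the majority of a group and no floor kept 71, and kept flagged spots 70. The replicate block kept 68, no filter 65, only the arrays compared 61 and median centring 45. Own quantile normalization repeated the series values and so had to keep 71, which is no separate test, although it is counted among the alternatives of each call. All 8 vehicle rats kept 40 of 42, leaving out 1 array kept 541 of 660, and 0 changed sign in any of these. At 12 and 24 h after acetaminophen Dusp4, Dusp12, Map2k5, Map2k6, Map3k8, Mapk13 and Mapk14 passed under every alternative run at both times, and Dusp1 did at 12 h. The causes of lost calls were not tested.

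Members that passed 4 h after acetaminophen numbered 5 with array weights, 0 with median centring, no filter or only the arrays compared, and 1 with the replicate block (2 in the report). Of all probes 1530, 170, 540, 0 and 679 passed there (689). At 4 h after methyl parathion 2 members and 113 probes (0) passed with array weights. Median centring and only the arrays compared each gave 0 at 12 h (5) and 24 h (2) after methyl parathion, and no filter 1 at 24 h. At 168 h after methyl parathion all 8 vehicle rats and the majority filter gave 5 each (3), and median centring 2. The differences between chemicals were 1 with array weights at 4 h (0), 8 with array weights and 2 with median centring at 12 h (4), and 5 with median centring at 24 h (10).

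Median centring moved the median of all probes to -0.22 at 168 h (-0.04 in the report) after acetaminophen and to -0.17 at 24 h (-0.03) after methyl parathion, to -0.22 (-0.09) for the difference at 168 h and to -0.12 (0.02) for 168 against 24 h. It gave members higher and lower of 5 and 3 (5 and 6) at 12 h and 0 and 5 (3 and 4) at 168 h after acetaminophen, and 1 and 1 (3 and 0) at 168 h after methyl parathion. For the differences it gave 2 and 0 (3 and 1) at 12 h and 4 and 1 (4 and 6) at 24 h, and for 24 against 12 h 0 and 4 (1 and 4). Of all probes called, those higher numbered 71 of 1474 (325 of 1159) at 168 h after acetaminophen, and 48 of 210 (330 of 816), 18 of 299 (60 of 203) and 174 of 1317 (1023 of 2014) at 12, 24 and 168 h after methyl parathion. For the differences at 12, 24 and 168 h they were 356 of 366 (666 of 1221), 1398 of 1822 (1394 of 3025) and 38 of 40 (270 of 323), and for 168 against 24 h 734 of 3534 (2284 of 4655).

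Other counts of all probes that moved by over 1.5 times were, at 12 h after methyl parathion, 2469 with all 8 vehicle rats, 2677 with array weights and 0 with only the arrays compared (816). At 24 h they were 544 with array weights, 305 with the majority filter and 0 with only the arrays compared (203). Array weights gave 254 (0), 2311 (1221) and 877 (323) for the differences at 4, 12 and 168 h, 1876 (770) for 24 against 12 h and 541 (0) for the vehicle groups. Median centring gave 363 for 24 against 12 h. No filter gave 211 and only the arrays compared 101 for the difference at 168 h (323), and only the arrays compared gave 92 for the vehicle groups (0).

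Leaving out 1 array gave 0 to 4, 8 to 10, 11 to 12 and 2 to 7 members at 4, 12, 24 and 168 h after acetaminophen, and 0 to 0, 0 to 8, 0 to 2 and 3 to 5 after methyl parathion. The differences gave 0 to 2, 2 to 5, 8 to 10 and 0 to 1, 24 against 12 h 4 to 6, 168 against 24 h 8 to 11, and the vehicle groups 0 to 0. Same-numbered rats share only a number: their deviations from group means correlated at -0.259 to 0.128 over 30 pairs, and the replicate block lost 3 of the 71 values. Array signal over background limits Mapk9, Mapk10, Mapk12, Mapk13, Mapk8ip1 and Dusp4.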
